A study of Sus scrofa with 14 samples.

Results

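Backsplice junctions assigned to OMG were examined in embryonic pig brain. OMG encodes oligodendrocyte myelin glycoprotein, a short gene whose product sits on the surface of oligodendrocytes and neurons and binds the Nogo receptor, which restrains neurite outgrowth. A circular RNA (circRNA) forms when the downstream end of an exon is joined to the upstream end of the same or an earlier exon, and reads across that backsplice junction are counted. In human, OMG, EVI2A and EVI2B lie inside an intron of NF1, a long gene with many exons that encodes neurofibromin, a GTPase activating protein that switches RAS off, and the nested genes are read from the other strand. In RefSeq's pig annotation, on the newer assembly Sscrofa11.1, EVI2A, EVI2B and OMG likewise lie within the bounds of NF1, with RAB11FIP4 on one side and WSB1 on the other.

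Every line of the 2 deposited circRNA tables whose host field held OMG or NF1 was taken. Of 5585 lines of cortex data 17 qualified, as did 9 of 3967 lines of regions data, and together they held 19 of 6720 distinct junctions. All of them named OMG as the only host, and 0 lines named NF1. The cortex table holds the forebrain of embryonic day 23 (E23) and, as later stages, cortex libraries of E42, E60, E80, E100 and E115. The regions table covers basal ganglia, brain stem, cerebellum, cortex and hippocampus, each at E60 and E115. Each of the 14 groups is 1 library, with no replicate, no treatment and no genetic change in the labels, and whether libraries share an animal is not stated. Long RNA was purified and ribosomal RNA removed before sequencing, and no step in the labels enriched circular over linear RNA.

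Library totals ran from 9.67 to 58.8 M reads, and circRNA reads in the lines used for tests from 518 in the E60 brain stem to 17336 in the E60 cortex. Levels are given as reads and as RPM, reads per M library reads, with exact Poisson intervals at 95% that cover counting error only. Per group, fewer cells of a type and less RNA per cell cannot be told apart in such bulk tissue. None of 8 oligodendrocyte lineage markers was a sole host in either table, so that lineage could not be followed through them. Host expression is given as FPKM, fragments per kilobase and M reads. The FPKM headings of the regions table went against the cortex table. Across 1446 hosts, log2(FPKM + 1) of the cortex table correlated at r = 0.960 (E60) and 0.973 (E115) with the columns headed Hippocampus, and at 0.699 and 0.718 with those headed Cortex. Region FPKM values are therefore given by column heading only.

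The 19 junctions lay on the minus strand of chromosome 12 (build Sscrofa10.2) between 45332161 and 45511876, a reach of 179716 bp. The distance between the joined ends was between 1011 and 76478 bp (median 7561 bp, against 9662 bp over all lines of the cortex table). Of the 19, 9 spanned more than 10 kb. OMG had the second most lines of 2462 hosts in the cortex table, where the median host had 1, and ranked 17th of 1941 hosts in the regions table. Among 33 hosts with at least 10 cortex lines on 1 chromosome, its reach ranked 3rd, and the median reach was 79941 bp. The deposited files give no gene length for OMG, and its length on Sscrofa11.1 was not set against these spans. Whether the joined ends fall in exons of OMG, of NF1 or of another transcript was not tested, for want of an annotation of Sscrofa10.2. The tables' strand was taken as deposited.

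The junctions fell into 4 stretches that did not overlap. The first, at 45332161 to 45336769, held 2 junctions, and the next, at 45341102 to 45353762, also held 2. The third, at 45358111 to 45365671, held 1. The remaining 14 lay within 90776 bp at 45421101 to 45511876. Gaps of 4332, 4348 and 55429 bp separated the stretches in that order. The last stretch held 123 of 154 stated cortex reads (79.9%), the 45341102 to 45353762 stretch held 25 (16.2%), and the other two held 2 and 4. Reads occurred in all 6 libraries in both of the larger stretches.

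**Figure D1:**
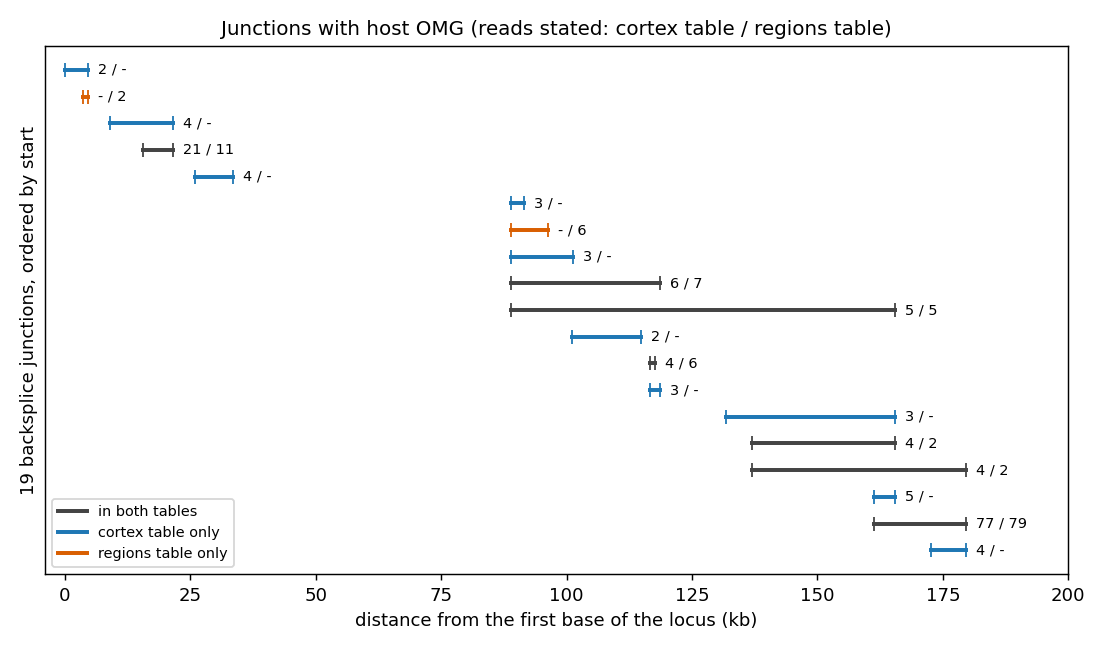
Each bar is 1 backsplice junction with host OMG, drawn from start to end as distance in kb from the first base of the locus; labels give the reads stated in the cortex and regions tables, and colour shows which table lists the junction. 14 of 19 junctions lie in the last stretch, where starts and ends recur, and the 18530 bp junction holds 77 and 79 reads.

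Few ends were used many times. The 19 junctions had 12 distinct starts and 11 distinct ends, and 17 shared at least 1 end with another. Read on the minus strand, the start of a junction is the donor side, where the last exon ends, and the end is the acceptor side, where the first exon begins. The start at 45421101 was joined to 5 different ends, giving lengths of 2619, 7339, 12280, 29676 and 76478 bp. The end at 45497578 was joined to 4 starts, giving lengths of 4232, 28436, 33683 and 76478 bp. The 76478 bp junction thus combined both of these shared ends. The end at 45511876, the last base of the locus, was in 3 junctions that held 85 cortex reads, and the start at 45493347 in 2 that held 82. Only 1 end fell just past another junction's start, where 45433318 and 45433380 enclosed 63 bp.

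Reads were concentrated in few junctions. The 18530 bp junction, from 45493347 to 45511876, had 77 of 154 stated cortex reads (50%) and ranked 191st among all cortex lines by reads. The 6094 bp junction, from 45347669 to 45353762, had 21 and ranked 809th. The other 15 cortex lines had 2 to 6 reads each, and 4 cortex junctions were seen in 1 library only. In 1 cortex line, the 7016 bp junction, the libraries listed 2 of 4 stated reads, and it was left out of the sums over lines that add up.

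The 18530 bp junction had 18, 19, 20, 5, 7 and 8 reads from the E23 forebrain to the E115 cortex, in stage order. In RPM these were 0.306, 0.712, 0.934, 0.188, 0.144 and 0.148. The highest values were those of the E42 and E60 cortex, and the lowest those of the 3 latest stages, which the E23 forebrain did not exceed beyond counting error (2.06 times E115, interval 0.854 to 5.49). The E60 level was 6.30 times the E115 level (interval 2.66 to 16.5) and 3.05 times the E23 level (1.53 to 6.12). E42 and E60 did not differ beyond counting error (ratio 1.31, interval 0.665 to 2.60), nor did E80 and E115 (1.27, 0.326 to 4.39) or E100 and E115 (0.974, 0.301 to 3.07). The 6094 bp junction, in another stretch, had 5, 4, 8, 2, 1 and 1 reads over the same libraries. Its E60 level was also above E115 (ratio 20.2, interval 2.70 to 895, from 8 reads against 1) and above E23 (4.40, 1.27 to 17.1).

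The lines that add up together held 36, 37, 33, 12, 13 and 19 reads in the same order. Their summed RPM was 0.612, 1.39, 1.54, 0.451, 0.268 and 0.352. Without the 18530 bp junction the E60 sum was 2.98 times the E115 sum (interval 1.23 to 7.35). The share of reads in the 18530 bp junction ran from 41.7% at E80 (Clopper-Pearson interval 15.2% to 72.3%) to 60.6% at E60 (42.1% to 77.1%), and these intervals overlapped. CircRNA reads as a whole also made up less of the E23 forebrain and of the E80 to E115 cortex than of the E42 and E60 cortex. In the lines that add up they were 16708 of 58.8 M library reads at E23, 17336 of 21.4 M at E60 and 11663 of 54.0 M at E115. Per 10000 circRNA reads the locus had 21.5, 21.6, 19.04, 14.8, 9.90 and 16.3 reads. On that scale the E60 to E115 ratio was 1.17 for the sum, 1.68 for the 18530 bp junction and 0.795 for the sum without it, so the last turned direction. At E23 and E60 the 18530 bp junction had 10.8 and 11.5 on that scale, and the 6094 bp junction 2.99 and 4.61.

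**Figure D2:**
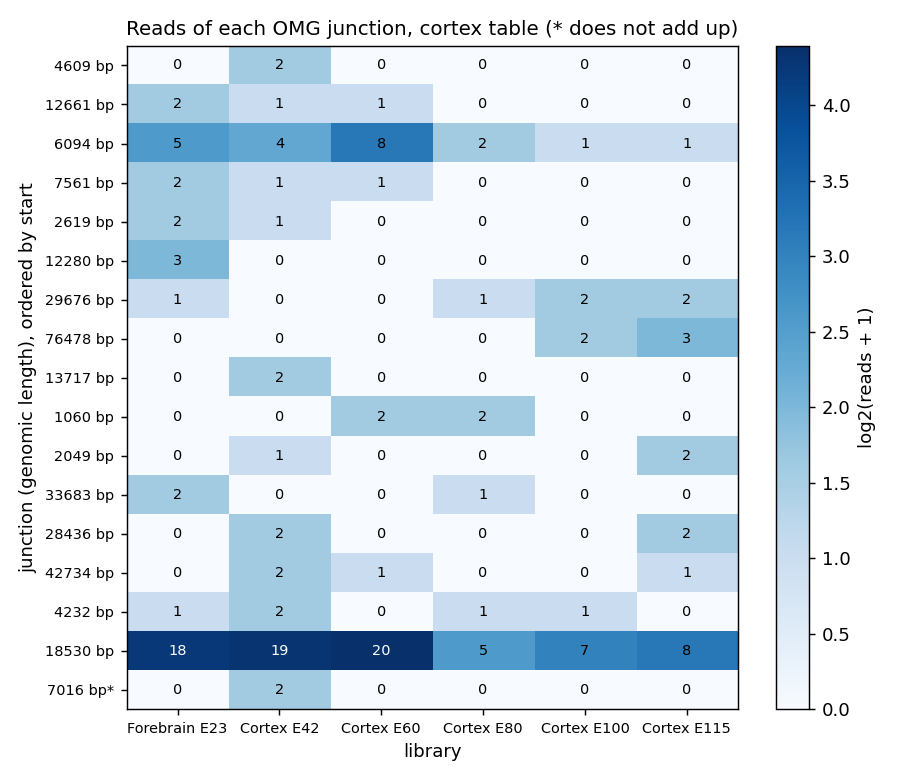
Reads of each of the 17 OMG junctions (rows, ordered by start, named by genomic length) in the 6 libraries of the cortex table (columns); colour is log2(reads + 1). Only the 18530 bp and 6094 bp junctions have reads in every library, and the 76478 bp junction has reads at E100 and E115 alone.

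Junctions differed in when they were seen. Of the 17, 7 had reads at E23 to E60 and none later, among them the 7016 bp junction, listing 2 of 4 stated reads. Another 9 had reads both early and late, and 1 had reads late only. That one was the 76478 bp junction, the longest, with 2 reads at E100 and 3 at E115. The 29676 bp junction from the same start had 1 read in the E23 forebrain, then 0, 0, 1, 2 and 2 in the cortex libraries. Together the 5 junctions over 25 kb, a length chosen after the values were seen, had 8 reads at E23 to E60 and 14 at E80 to E115, from 107 and 129 M library reads. The shorter junctions had 100 and 30, counting the 2 listed reads of the 7016 bp junction at E42. At 2 to 6 reads per junction, a stage with 0 reads does not show absence, since 0 reads allow up to 0.140 RPM at E60 and 0.0556 RPM at E115 (3 reads per library).

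A linear trend over embryonic day was fitted for circRNAs with at least 20 reads, which kept 2 of the 17 junctions. The edgeR quasi-likelihood test called 3 of 803 circRNAs (0.374%), with a median log2 change of -1.47 over the 92 days. The 18530 bp junction had a log2 change of -2.36 (SE 1.49, edgeR adjusted p = 0.547) and the 6094 bp junction of -2.96 (SE 1.99, adjusted p = 0.547), neither past the threshold of 0.05. Without the E23 forebrain, which was the lowest of the first 3 libraries for both, the 18530 bp junction changed by -3.68 (SE 1.19, edgeR adjusted p = 0.0336). In that fit 172 of 651 circRNAs were called lower (26.4%) and the median was -2.72, so the junction moved in the direction of most circRNAs. The 6094 bp junction was not tested there, as fewer than 20 reads remained.

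OMG expression and the summed circRNA RPM were both higher at E60 than at E23, and they parted after E60. Per 10000 circRNA reads the sum was 21.5 at E23 and 19.04 at E60, so it did not share that rise. OMG is the named host of these junctions, and whether they are spliced from it was not tested. OMG FPKM was 0.425, 2.42, 12.7, 19.9, 76.2 and 97.6 in stage order, higher at each later stage, and 229-fold higher at E115 than at E23. OMG rose by 6.29 on the log2(FPKM + 1) scale over the series (SE 0.48, limma adjusted p = 0.000487). That slope ranked 2nd of 2247 hosts, of which 218 were called higher (9.7%), and the median host changed by -0.41. All 17 cortex lines carry the same FPKM values, so they are 1 measurement. Summed RPM divided by FPKM was 1.44, 0.573, 0.121, 0.0226, 0.00352 and 0.00361 in stage order. Between E60 and E115 the FPKM was 7.69-fold higher while the summed circRNA RPM was 4.38 times lower (interval 2.42 to 8.15). Over the 6 libraries, Pearson's r between summed RPM and FPKM was -0.64 (exact permutation p = 0.108) and Spearman's rho was -0.71 (exact permutation p = 0.136), both 0.272 after adjustment over 4 relations. Without the 2 libraries farthest from the median FPKM, r was -0.22.

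**Figure D3:**
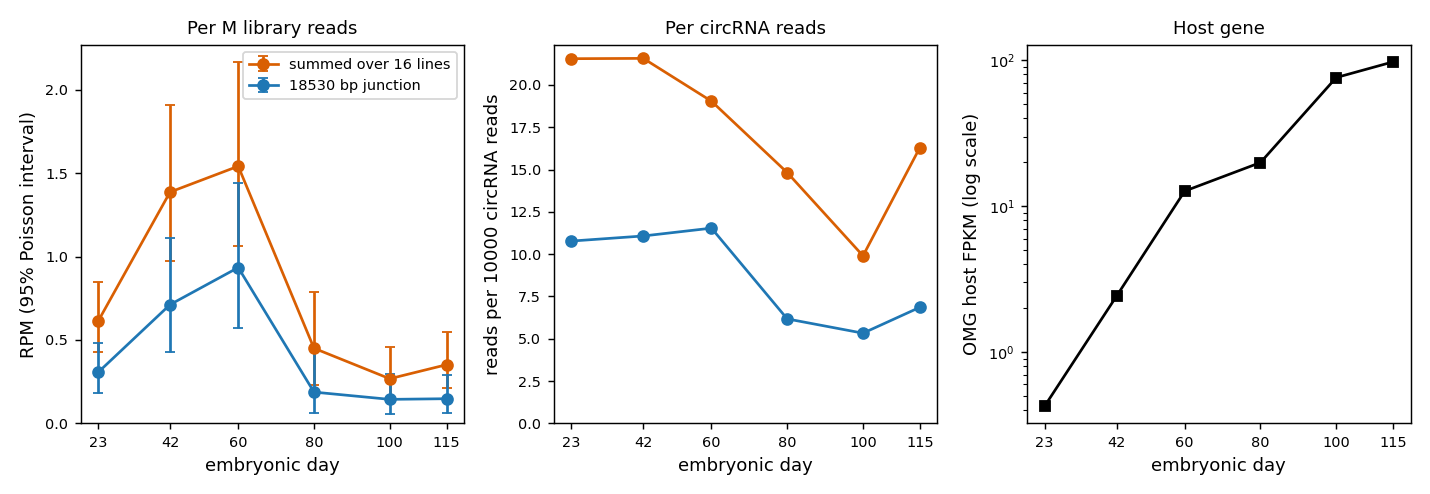
Left, RPM of the 18530 bp junction and of the 16 OMG lines that add up against embryonic day, with 95% Poisson intervals; middle, the same reads per 10000 circRNA reads; right, OMG FPKM on a log axis. The RPM peaks at E60 (0.934 and 1.54) whereas FPKM is higher at every later stage, from 0.425 to 97.6.

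Set beside other circRNAs, the distance between the 2 courses was large. Host here means the gene named in the host field. Whether the OMG junctions, with a reach of 179716 bp, are spliced from OMG was not tested. Of 707 tested circRNAs with a sole host that also had a fitted trend, 138 (19.5%) had a slope below 0 with a host slope above 0. Where the host was called higher, 23 of 59 circRNAs had a slope below 0, and the median slope of those 59 was 0.51, against -1.51 over all. The host slope exceeded the circRNA slope by 8.65 for the 18530 bp junction and by 9.25 for the 6094 bp junction, which ranked 3rd and 2nd of the 707, and the median gap was 1.10. Most of each gap was the host slope of 6.29, which ranked 2nd of 2247 hosts. Counted from the lowest, the circRNA slopes of -2.36 and -2.96 ranked only 231st and 159th of 803. These gaps set 2 log2 scales side by side, one of RPM and one of FPKM + 1. No p is attached to them.

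**Figure D4:**
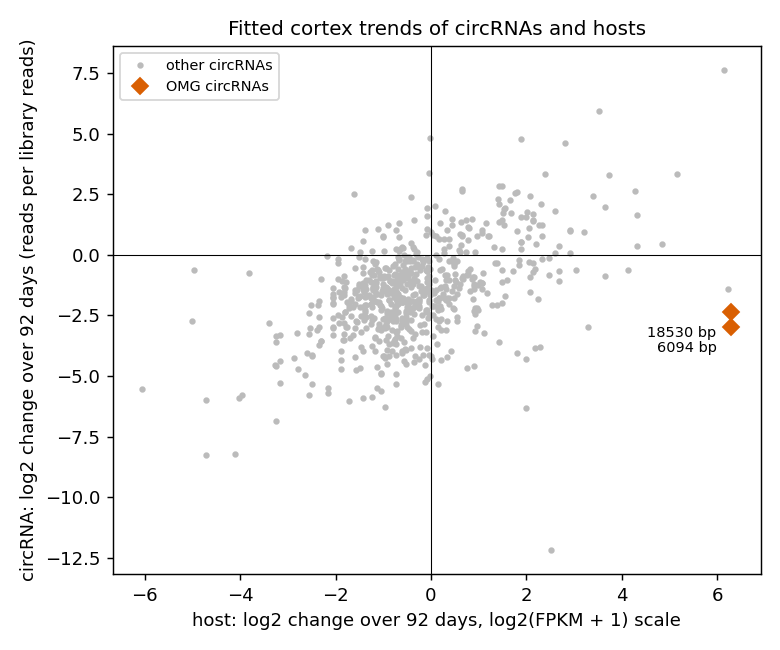
Fitted log2 change over the cortex series of 707 circRNAs (vertical) against that of their host, on the log2(FPKM + 1) scale (horizontal); diamonds mark the OMG junctions. Both lie at a host change of 6.29 with circRNA changes of -2.36 and -2.96.

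By the shape of its course the 18530 bp junction resembled circRNAs of other hosts. Among 310 circRNAs with at least 50 cortex reads, the highest Pearson correlations of log2(RPM + 0.1) over 6 libraries were with a 78468 bp circRNA of NFATC3 (r = 0.988) and a 2845 bp circRNA of ZNF292 (r = 0.987). Next came a circRNA listed under 3 Ensembl IDs (0.984), 1 of ZCCHC6 (0.979) and 1 of TLK2 (0.979). The median over the 310 was 0.75, so most of them shared much of this course. Over the 10 regions libraries, where its line does not add up, the highest of 126 correlations was 0.60, with a circRNA listed under MSANTD3 and an Ensembl ID of TMEFF1, and the median was -0.09. The next were with circRNAs of an unnamed Ensembl ID (0.45), NCOR1 (0.43), NKTR (0.43) and C9orf40 (0.41).

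In the regions table the 18530 bp junction ranked 73rd, with 79 stated reads, but its libraries listed 72, so 7 are unaccounted for. The E60 cortex had 8 reads in this line and 20 in the cortex table, whereas the E115 cortex had 8 in both. With 20 in place of 8 the libraries would sum to 84, above the stated total. Of the 7 junctions in both tables, E60 cortex reads were equal in 6 and E115 cortex reads in 7. The E115 basal ganglia listed 0 reads in this line and in all 191 regions lines that did not add up, against 85.9% of the lines that did. Its 0 is therefore not read as a level.

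With that limit, the 18530 bp junction had 6 reads at E60 and 0 at E115 in basal ganglia, 7 and 3 in brain stem, 9 and 3 in cerebellum, 8 and 8 in cortex, and 7 and 21 in hippocampus. In RPM, E60 and E115 were 0.530 and 0.0797 in brain stem, 0.875 and 0.191 in cerebellum, 0.374 and 0.148 in cortex, and 0.262 and 1.83 in hippocampus. The E115 hippocampus had the highest value, although its interval (1.14 to 2.80) overlapped that of the E60 cerebellum (0.4 to 1.66). Its level was 7 times that of the E60 hippocampus (interval 2.87 to 19.5) and 12.4 times that of the E115 cortex (5.27 to 32.3). The E115 level was below E60 beyond counting error in brain stem (ratio 0.150, interval 0.0251 to 0.659) and cerebellum (0.218, 0.0380 to 0.875), and not in the cortex reads of this line (0.397, 0.130 to 1.21). With the 20 reads that the cortex table gives the E60 cortex, the same pair of libraries did differ, E60 being 6.30 times E115. At E60 the order in this line was cerebellum, basal ganglia (0.574 RPM), brain stem, cortex and hippocampus. No neighbours differed beyond counting error, but cerebellum was above hippocampus (ratio 3.34, interval 1.11 to 10.5), and the cortex table's 0.934 RPM would put cortex first. Per 10000 circRNA reads of lines that add up, the E60 brain stem was highest (135) and the E115 hippocampus next (122). With all lines as the denominator they were 86.6 and 93.5. On the first of these scales the E115 to E60 ratio was 3.42 in hippocampus, 0.0444 in brain stem, 0.0859 in cerebellum and 1.83 in cortex, which turned direction.

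**Figure D5:**
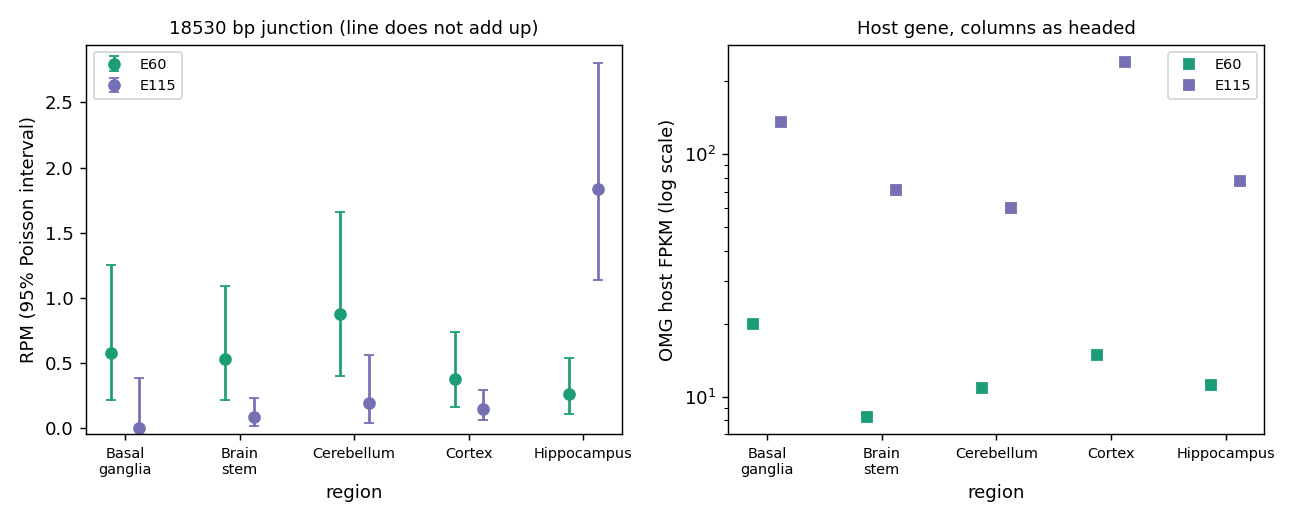
Left, RPM of the 18530 bp junction by region at E60 and E115 with 95% Poisson intervals, from a line whose libraries list 72 of 79 stated reads; right, OMG FPKM by column heading, on a log axis. The E115 hippocampus is highest at 1.83 RPM, and FPKM is higher at E115 under every heading.

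The other 8 regions junctions had 2 to 11 stated reads. The 6094 bp junction had 11, of which the E60 cortex had 8 and the E60 cerebellum, E115 cerebellum and E115 cortex 1 each. The 7339 bp junction, which the cortex table does not list, had 2 reads in the E115 brain stem and 1 each in both cerebellum and both cortex libraries. The 1060 bp junction had 3 reads in the E115 cerebellum, 2 in the E60 cortex and 1 in the E60 hippocampus. The longest, of 76478 bp, had 3 in the E115 cortex and 1 each in the E60 cerebellum and E115 hippocampus. The 29676 bp junction, which listed 6 of 7 stated reads, had 1 in the E60 cerebellum, 3 in the E115 cerebellum and 2 in the E115 cortex. In all, 7 of the 9 regions junctions had a read outside cortex, and the 28436 bp and 42734 bp junctions did not.

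E115 was compared with E60 with region as a block. The edgeR test called 0 of 387 circRNAs (0%), with 4 at an unadjusted p under 0.05 and 1 called by DESeq2, and no OMG junction passed the filters. With all lines, 0 of 440 were called (0%), and the 18530 bp junction had a log2 change of -1.55 (SE 1.26, edgeR adjusted p = 0.995), in a fit that includes the 0 of the E115 basal ganglia. Without basal ganglia it was -1.02 and without hippocampus -2.47, neither of them called (edgeR adjusted p = 0.998 and 0.9998). With a minimum of 10 reads, 0 of 872 were called (0%), and the 6094 bp junction had -1.85 (SE 2.35, edgeR adjusted p = 0.9997). Over the 7 lines that add up, with 34 reads in all, the summed RPM had a mean log2 change of -0.11 from E60 to E115 (SD 1.10, n = 5 regions). An exact sign-flip permutation test gave p = 1, where 0.062 is the smallest p that 5 regions allow. The single changes, with 0.5 reads added, were -2 in cortex, 0.81 in brain stem, 0.48 in hippocampus, 0.04 in cerebellum and 0.11 in basal ganglia, where both libraries had 0 reads in these lines. With all lines, which bring in the 18530 bp junction, the mean was -1.09 and 1 of 5 regions was higher at E115. That mean includes -3.59 in basal ganglia, from the E115 value of 0 that is not read as a level. In the lines that add up 4 of 5 were higher, counting basal ganglia, whose sign there comes from library size alone. With 1 read added instead 3 were higher, and per circRNA reads 2 were.

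OMG expression rose from E60 to E115. Under the headings of the regions table its FPKM was 19.9 and 136 for basal ganglia, 8.27 and 71.0 for brain stem, 10.9 and 60.3 for cerebellum, 14.9 and 240 for Cortex, and 11.2 and 77.7 for Hippocampus. E60 and E115 did not overlap, and the folds ran from 5.54 to 16.1. The rise was 2.93 on the log2(FPKM + 1) scale (SE 0.32, limma adjusted p = 0.00101), 13th highest of 1757 hosts, of which 155 were called higher (8.82%). Without the columns headed Cortex and Hippocampus it was 2.68 (SE 0.44, limma adjusted p = 0.000192). The cortex table gave 12.7 at E60 and 97.6 at E115, and why the tables differ was not tested. Since FPKM values of E60 and E115 form separate clusters of 5, no relation of circRNA level to FPKM across regions is given.

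Few circRNAs near OMG named another gene as host. Within 300 kb of the locus, the only other circRNAs listed named WSB1, which encodes a substrate receptor of a ubiquitin ligase. They were 2, at 45672009 to 45676439 and at 45673369 to 45673489, with 3 and 2 reads, all at E23, and they began 160132 bp and 161492 bp past the locus on the same strand. WSB1 FPKM was 118 at E23 and 33.9 at E115. Of a list of 12 genes in and around NF1, 5 were sole hosts in the cortex table (TEFM, UTP6, SUZ12, COPRS and CRLF3), none of their FPKM trends was called, where 24% of all hosts were called in either direction, and their median was -0.94, against -0.41 over all hosts. NF1, EVI2A, EVI2B and RAB11FIP4 were not sole hosts of any line.

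Partners of OMG and of NF1 gave few sole hosts too. Of 18 genes of the myelin inhibitor pathway, in which the Nogo receptor acts through RHOA, the cortex table had ROCK1 and ROCK2, kinases that RHOA activates. ROCK1 FPKM was 12.6, 13.5, 8.12, 5.997, 5.17 and 3.56 from E23 to E115, and it fell by 1.68 on the log2(FPKM + 1) scale (SE 0.38, limma adjusted p = 0.0151). Across the region columns it changed by 0.25 (SE 0.37, limma adjusted p = 0.712). ROCK2 changed by -0.02 (SE 0.56, limma adjusted p = 0.981) in the cortex series and rose by 1.54 from E60 to E115 across the region columns (SE 0.32, limma adjusted p = 0.0143). Of 14 RAS regulators, 3 were sole cortex hosts (RASA1, SOS1 and BRAF) and none was called, where 24% of all cortex hosts were called in either direction. Among 5 in the regions table only SPRED1, whose product recruits neurofibromin to the membrane, rose (1.39, SE 0.33, limma adjusted p = 0.0231), where 10.2% of all hosts were called in either direction. Of 25 oligodendrocyte genes only QKI, an RNA binding protein of glia that also promotes circRNA formation, was a sole host. Its FPKM ran from 132 to 354 in the cortex series (log2 change 1.03, SE 0.49, limma adjusted p = 0.156) and rose by 1.70 across the region columns (SE 0.45, limma adjusted p = 0.0355).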

How the data were processed

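Backsplice reads were deposited as whole counts per library, per the file headers. The deposited RPM values, per the file headers, come beside them; single reads are given there as 0 RPM, so RPM was recomputed here from reads and the library totals that reads and deposited RPM imply. Host gene FPKM was deposited, per the file headers. Other deposited values are unique junction reads and genomic length, per the file headers. The submitters' processing notes name Trim Galore, TopHat2, Cufflinks, Cuffdiff and the build Sscrofa10.2 (susScr3). The circRNA caller is not given in the sources used here. Every line has at least 2 unique reads.

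Positions count from 1. Library reads add up to the stated total in 4997 of 5585 cortex lines and 3776 of 3967 regions lines, and those were used in fits unless stated. CircRNA counts were compared by the quasi-likelihood test of edgeR 4.0.16 (library totals as sizes, at least 20 reads) and FPKM with limma 3.58.1 on log2(FPKM + 1) for sole hosts with a mean of at least 1, with Benjamini-Hochberg adjustment over all features and a threshold of 0.05. Both were tested on simulated data. Region stood as a block; p-values measure scatter around a line or between regions, not between animals. DESeq2 1.42.0, TMM factors, other minima, all lines and leaving out libraries were alternatives. R 4.3.3, Python 3.11.15 and scipy 1.17.1 were used. Value columns without a sample numbered 0. Members, gene lists and tests were chosen with earlier results of these data known. Genes named are members, circRNAs within 300 kb, the 5 circRNAs most like the leading one, and listed genes. Some hosts and markers are not reported here.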

Additional observations from a re-analysis of the deposited data

Results flagged for a closer look

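The 18530 bp OMG junction moved in opposite directions between regions. From E60 to E115 its level was 7 times higher in hippocampus and lower in brain stem (ratio 0.150) and cerebellum (0.218), each beyond counting error. The log2 changes of hippocampus and brain stem differed by 5.54, and those of hippocampus and cerebellum by 5.0. Per 10000 circRNA reads of lines that add up, the ratios were 3.42, 0.0444 and 0.0859. With 1 library per region and stage the difference was not tested. The line lists 72 of 79 stated reads. The E115 hippocampus has 23.2% of its circRNA reads in lines that do not add up, against 6.36% in the E115 brain stem and 6.40% in the E115 cerebellum. At E60 these shares were 12.7% in hippocampus, 35.9% in brain stem and 15.2% in cerebellum. The part of that in the result was not tested.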

How the results depend on the processing

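The cortex trend called 3 circRNAs, 41 with TMM factors, 47 with DESeq2 and 0 to 178 without 1 library. The 18530 bp junction kept a negative slope in each (-0.98 with TMM factors, -0.92 with DESeq2, -3.68 to -1.97 without 1 library) and was called only without the E23 forebrain (-3.68). TMM factors moved the median of all circRNAs from -1.47 to -0.19. E115 against E60 called 0 circRNAs, 2 with TMM factors, 1 with DESeq2 and 0 to 1 without 1 region. Hosts called by FPKM numbered 540 in the cortex series (165 to 657 without 1 library) and 180 across regions (77 with no filter, 20 to 246 without 1 region). The rise of OMG FPKM was called in every alternative run. Per circRNA reads, the E60 to E115 ratio of the 18530 bp junction was 1.68 instead of 6.30, and of the sum 1.17 instead of 4.38. The mean log2 change over regions was -0.11 and ran from -0.34 to 0.36 without 1 region. It was 0.36 without Cortex (exact permutation p = 0.125) and -0.39 per circRNA reads. With all lines it was -1.09, which includes the 0 of the E115 basal ganglia. The causes were not tested. In the regions table, TMM factors and DESeq2 gave no value for an OMG junction, since none had 20 reads in a line that adds up. No paired analysis was possible because every group has 1 library with the same replicate number; pairing by region is part of the tests reported. Depth is a limit: 15 of 17 cortex junctions have 2 to 6 reads.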
